A study of Rattus norvegicus with 34 samples.

Results

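The regulators of the integrated stress response described here are 10 genes, taken by symbol: Atf4, Atf3, Atf5, Ddit3, Cebpb, Cebpg, Trib3, Chac1, Nupr1 and Sesn2. All probe sets that the array annotation assigns to these symbols were collected, which gave 14 probe sets of 31099 on the array and 10 of the 14217 named genes. Trib3 had 3 probe sets, Cebpg and Sesn2 had 2 each, and the other members had 1. Their transcript levels were measured on Affymetrix rat arrays, 1 array per sample, in 34 samples labelled as given monuron, a phenylurea herbicide, or its vehicle. Cultures of NRK-52E, an epithelial line derived from the kidney of an Osborne-Mendel rat, were held at confluence and exposed to monuron or to 0.1% DMSO alone for 6, 24 or 72 h, with 3 arrays for each agent and time. The cell protocol names the compound as CHL, at 1.1 µM in DMSO, while the titles and treatment labels say monuron, and the groups are named here as the labels name them. The animals were male Wistar-derived rats, 7 to 9 weeks old and weighing 190 to 240 g. They received corn oil at 5 ml/kg alone (control) or with monuron at 40 mg/kg on day 1 and 400 mg/kg on days 2 and 3. Kidney and liver each had 4 monuron and 4 control arrays, and no label ties a kidney to a liver of one animal. The tissue label gives 72 h, while the protocol has the rats killed 72 h after the last dose.

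The integrated stress response begins with kinases that phosphorylate the initiation factor eIF2, which slows general translation and favours translation of the mRNA of Atf4. The ATF4 protein, a leucine zipper transcription factor, pairs with C/EBP family members and raises genes of amino acid uptake, amino acid synthesis and tRNA charging, together with the factors Atf3, Atf5 and Ddit3 (CHOP). Other products limit the response or act at its later stages: Trib3 encodes a pseudokinase that binds ATF4 and CHOP, Chac1 an enzyme that degrades glutathione, Sesn2 a leucine sensor that restrains TORC1, and Nupr1 a small stress-induced chromatin protein. The arrays measured mRNA, so phosphorylation of eIF2 and ATF4 protein lay outside the measurement.

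The promoter stretches of 3 members are shown because they hold the core of the C/EBP-ATF response element, the composite site that ATF4 and C/EBP factors bind. The motif was spelled TGATGNAA and searched on both strands of the 250 bases before each annotated start, in RefSeq sequence of the build GRCr8. Of the 10 members 9 had a promoter in the sequence table (Atf3 is named only), and 3 of the 9 held a match, against 1139 of 33469 promoters of the same length (3.40%). Sequences read 5′ to 3′ on the gene's strand, and capitals mark the match, which in all of them lies on the opposite strand.
Trib3: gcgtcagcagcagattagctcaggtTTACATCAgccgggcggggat
Chac1: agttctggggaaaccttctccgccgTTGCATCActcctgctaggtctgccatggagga
Nupr1: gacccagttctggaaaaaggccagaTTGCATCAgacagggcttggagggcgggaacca
The Trib3 stretch is chr3:161275534-161275579 on the minus strand, with the match at -21 to -14 from the start. The Chac1 stretch is chr3:126795939-126795996 on the plus strand, with the match at -167 to -160. The Nupr1 stretch is chr1:190645924-190645981 on the minus strand, with the match at -55 to -48. The cAMP response element TGACGTCA was found in 0 of the 9 promoters (1.59% of all), and the ER stress element, searched in full, in 0 of 9 (0.0657% of all). These matches describe the letters in the window and were not measured as binding sites.

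Precision is limited by the number of arrays, since array values carry no read depth. Values are log2 expression, and a difference of 1 is a doubling. They were compared within cells, kidney or liver and not between probe sets. Replicate arrays correlated at 0.9872 to 0.9988, lowest among the DMSO arrays at 72 h, where replicate 3 stood apart from replicates 1 and 2; each cell result is therefore also given without it where that changes a call. Of 11 proximal tubule markers, 0 to 1 lay above the array median on all arrays of a cell group, against 6 of 10 fibroblast and mesenchyme markers. The cells thus did not show a proximal tubule profile in these markers. Kidney had 11 of 11 proximal tubule markers and liver 9 of 9 hepatocyte markers above the median. Both organs had 8 of 10 fibroblast and mesenchyme markers above it, so the count of 6 does not set the cells apart. Of 10 markers of injury and dedifferentiation, 5 lay above the median in every cell group. In cultures and tissues alike, fewer cells of a type and less RNA per cell cannot be told apart.

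In the cells the monuron difference was positive for all 10 members at all 3 times. At 6 h, 4 of the 10 passed the test (limma, adjusted p under 0.05 over the 9042 genes tested) and rose: Atf4, Cebpg, Chac1 and Nupr1; 3.30% of all genes tested rose. At 24 h, 7 rose (Ddit3, Cebpb, Cebpg, Trib3, Chac1, Nupr1 and Sesn2), against 6.43% of all genes. At 72 h, 8 rose (all but Atf5 and Cebpb), against 30.7% of all genes, so that the share among members has to be read against a broad change in the transcriptome. No member fell at any time, where 3.02%, 7.14% and 30.9% of all genes did. The median member difference was 0.76, 1.22 and 1.61 at 6, 24 and 72 h, beside a median over all genes of -0.02, -0.00 and 0.01. The monuron arrays lay wholly above the DMSO arrays for 8 members at 6 h, 10 at 24 h and 8 at 72 h, against 17.6%, 24.4% and 28.6% of all genes. Without DMSO 72 h replicate 3, which enters the error estimate shared by all times, 8, 10 and 9 members passed at the 3 times. Calls over all genes grew as well in that fit, to 604, 1044 and 3082 genes higher of the 9042 tested.

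**Figure D1:**
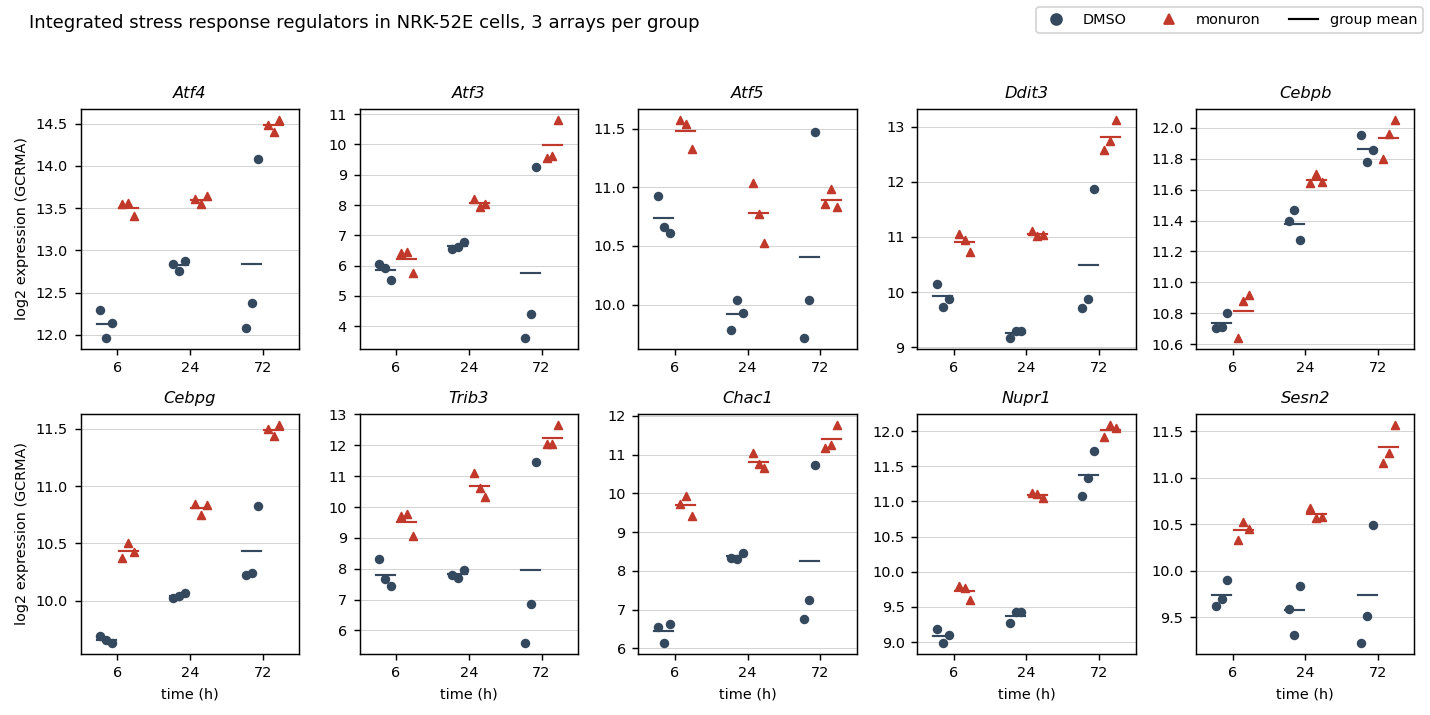
Log2 expression of the 10 members on each of the 18 cell arrays, 1 panel per gene, with time on the horizontal axis; points are single arrays and bars are group means. The monuron arrays lie above the DMSO arrays for all 10 genes at 24 h, and the DMSO arrays at 72 h are spread widely because replicate 3 is high in most panels.

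Atf4, the central factor of the response, was among the brightest probe sets in the cells, at percentile 95.59 to 99.59 of its array. At 6 h the monuron arrays read 13.55, 13.56 and 13.41 and the DMSO arrays 12.30, 11.97 and 12.14. The groups did not overlap, and Atf4 rose by 1.37 (SE 0.32, adjusted p = 0.0195, limma), which is 2.59-fold. This call at 6 h was lost when any 1 of the 3 monuron arrays was left out (adjusted p = 0.0508, 0.0864 and 0.0593 without replicates 1, 2 and 3) or DMSO replicate 1 or 2 (0.0581 and 0.0637). At 24 h the monuron arrays read 13.61, 13.54 and 13.65 and the DMSO arrays 12.83, 12.76 and 12.88. Again no array overlapped, and the difference of 0.78 (SE 0.32) did not pass the test (adjusted p = 0.113). That p fell to 1.17e-05 without DMSO 72 h replicate 3 and to 0.0439 without DMSO 72 h replicate 1, with the difference the same. At 72 h the monuron arrays read 14.49, 14.40 and 14.54 and the DMSO arrays 12.08, 12.37 and 14.08, the last of them close to the treated level, and the rise was 1.63 (SE 0.32, adjusted p = 3.46e-04), or 2.25 without that array.

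Atf3, a stress-induced factor that represses or activates genes with its partners, changed late. At 6 h the monuron arrays (6.42, 6.45 and 5.75) overlapped the DMSO arrays (6.06, 5.93 and 5.54), and the difference was 0.36 (SE 0.91, adjusted p = 0.866). At 24 h they read 8.19, 7.93 and 8.04 against 6.54, 6.60 and 6.78. These groups were apart, and the difference of 1.41 (SE 0.91) did not pass (adjusted p = 0.319), though it did without DMSO 72 h replicate 3 (0.0027). At 72 h the monuron arrays reached 9.54, 9.61 and 10.81 while DMSO replicates 1 and 2 had only 3.62 and 4.42, and DMSO replicate 3 had 9.25. Atf3 rose by 4.22 (SE 0.91, adjusted p = 0.0009), or 18.7-fold, and by 5.97 without that replicate. The size of this rise rests on dim DMSO values: the lowest lay at percentile 48.04 of its array, and 2 of the 3 exceeded the array median. The DMSO level also fell from 24 to 72 h, by 2.62 without replicate 3, while the treated mean went from 8.05 to 9.99.

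Atf5, a relative of ATF4 that is known for mitochondrial stress, was higher in every monuron array at 6 and 24 h without passing the test. At 6 h the values were 11.57, 11.54 and 11.32 against 10.93, 10.66 and 10.61, a difference of 0.74 (SE 0.29, adjusted p = 0.135). At 24 h they were 11.04, 10.77 and 10.53 against 9.79, 10.04 and 9.93, a difference of 0.86 (SE 0.29, adjusted p = 0.0596). At 72 h the monuron arrays (10.86, 10.99 and 10.83) lay between DMSO replicates 1 and 2 (9.72 and 10.04) and DMSO replicate 3 (11.47), and the difference was 0.49 (SE 0.29, adjusted p = 0.161). Atf5 was therefore the member for which the calls rested most on that array. Without it the rises at 6, 24 and 72 h passed, with adjusted p = 0.0015, 2.00e-04 and 8.73e-06, the last with a difference of 1.02. Without DMSO 72 h replicate 1 the rise at 24 h passed as well (adjusted p = 0.0207).

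Ddit3 encodes CHOP, the factor tied to cell death when stress persists. At 6 h it read 11.05, 10.95 and 10.72 with monuron and 10.14, 9.74 and 9.88 with DMSO. The groups were apart by 0.99 (SE 0.37, adjusted p = 0.117), and the difference passed with same-numbered arrays treated as pairs (0.0358) and without DMSO 72 h replicate 3 (1.58e-04). At 24 h the values were 11.10, 11.02 and 11.04 against 9.17, 9.29 and 9.29, and Ddit3 rose by 1.80 (SE 0.37, adjusted p = 0.0057), which is 3.49-fold. At 72 h they were 12.58, 12.75 and 13.13 against 9.71, 9.88 and 11.88, a rise of 2.33 (SE 0.37, adjusted p = 5.40e-05), or 3.02 without DMSO replicate 3. The treated level was thus highest at 72 h.

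The C/EBP factors that pair with ATF4 and CHOP differed from each other. Cebpg, the small C/EBP protein that is a partner of ATF4 on amino acid genes, rose at every time in its brighter probe set. It read 10.37, 10.50 and 10.43 against 9.69, 9.66 and 9.63 at 6 h, then 10.84, 10.75 and 10.83 against 10.02, 10.04 and 10.07 at 24 h, and 11.50, 11.44 and 11.54 against 10.23, 10.24 and 10.83 at 72 h. No monuron array overlapped a DMSO array of its time. The rises were 0.77, 0.76 and 1.06 (each SE 0.12, limma adjusted p = 0.0022, 0.0010 and 1.99e-06). This was a small step with little scatter between arrays, apart from DMSO 72 h replicate 3. The second Cebpg probe set, which is dimmer, gave 1.25, 1.14 and 1.66, and with the mean of both probe sets the adjusted p was 0.0741 at 6 h and 0.0599 at 24 h. Tested by itself, the dimmer one passed only at 72 h (limma adjusted p = 0.321, 0.315 and 0.0465). Its groups overlapped at 6 h, with the lowest monuron array at 5.60 and the highest DMSO array at 6.62. Cebpb, which drives acute phase and differentiation genes, moved little. Its difference was 0.07 at 6 h (10.64, 10.88 and 10.92 against 10.70, 10.71 and 10.80; adjusted p = 0.665) and 0.08 at 72 h (11.80, 11.96 and 12.05 against 11.95, 11.78 and 11.85; adjusted p = 0.459), with overlapping arrays. At 24 h it was higher by 0.29 (11.65, 11.70 and 11.65 against 11.40, 11.47 and 11.28; SE 0.09, adjusted p = 0.0384). The 24 h call did not hold when 1 of the 24 h arrays was dropped, whichever it was (adjusted p = 0.0557 to 0.1294), or without DMSO 6 h replicate 2 (0.0508). It was also lost with arrays centred on their medians (0.0549), with no filter on dim probe sets (0.0517) or with no trend (0.0523).

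Trib3, the pseudokinase that feeds back on ATF4 and CHOP, had the largest difference of the members at 24 and 72 h, though within its error of that of Chac1 at 24 h and of Atf3 at 72 h. At 6 h it read 9.72, 9.78 and 9.07 against 8.31, 7.65 and 7.43. The groups were apart by 1.73 (SE 0.91), which did not pass (adjusted p = 0.271) but did without DMSO 72 h replicate 3 (0.0017). At 24 h the values were 11.10, 10.62 and 10.34 against 7.79, 7.70 and 7.97, a rise of 2.87 (SE 0.91, adjusted p = 0.0479), or 7.30-fold. This call lay at the edge: the adjusted p was 0.0907 to 0.1345 without any 1 array of 24 h, 0.0553 to 0.0618 without any 1 array of 6 h, and 0.0552 and 0.0585 without monuron 72 h replicates 1 and 2. It was 0.0867 with no filter, 0.0557 with centred arrays, 0.0598 with no trend and 0.0592 with the 3 probe sets averaged. At 72 h monuron arrays had 12.03, 12.04 and 12.67, DMSO replicates 1 and 2 had 5.60 and 6.86, and DMSO replicate 3 had 11.44. The rise was 4.28 (SE 0.91, adjusted p = 0.0008), 19.4-fold, and 6.01 without that replicate. All 3 Trib3 probe sets gave like differences, 1.73, 1.88 and 2.12 at 6 h, 2.87, 2.75 and 2.50 at 24 h, and 4.28, 4.26 and 4.10 at 72 h. When every probe set was tested by itself, none of the 3 passed at 24 h (adjusted p = 0.0779, 0.0702 and 0.0914).

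Chac1, which breaks down glutathione and is a late target of ATF4 and CHOP, had the largest rise of the members at 6 h. Its values were 9.72, 9.92 and 9.43 with monuron and 6.55, 6.15 and 6.62 with DMSO. The groups were far apart, by 3.25 (SE 0.64, adjusted p = 0.0097), which is 9.51-fold. At 24 h it read 11.05, 10.76 and 10.64 against 8.34, 8.31 and 8.47, a rise of 2.45 (SE 0.64, adjusted p = 0.0214). At 72 h it read 11.18, 11.24 and 11.77 against 6.76, 7.24 and 10.74, a rise of 3.15 (SE 0.64, adjusted p = 0.0005), or 4.40 without DMSO replicate 3. The 6 h call did not hold without monuron 6 h replicate 2 (adjusted p = 0.0553), and the 24 h call was lost without any 1 of monuron 24 h replicates 1, 2 and 3 or DMSO 24 h replicates 1 and 2 (0.0531 to 0.0723).

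Nupr1, the chromatin-associated stress protein, followed another course. At 6 h it read 9.79, 9.77 and 9.60 against 9.19, 8.99 and 9.09, and rose by 0.63 (SE 0.12, adjusted p = 0.0085; 0.0505 without monuron 6 h replicate 2). At 24 h it read 11.12, 11.10 and 11.04 against 9.26, 9.43 and 9.43, a rise of 1.71 (SE 0.12, adjusted p = 1.40e-06). At 72 h it read 11.92, 12.09 and 12.04 against 11.08, 11.34 and 11.71, a rise of 0.64 (SE 0.12, adjusted p = 2.81e-04). Its treated level was highest at 72 h, but its DMSO level had risen as well, so the difference was widest at 24 h.

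Sesn2, which restrains TORC1 when leucine is scarce, rose at 24 and 72 h. At 6 h the values of 10.34, 10.53 and 10.44 lay above those of 9.63, 9.70 and 9.90, a difference of 0.69 (SE 0.23, adjusted p = 0.0765). It passed with same-numbered arrays as pairs (0.0221) and when replicate 1 or replicate 3 of DMSO at 72 h was left out (0.0302 and 0.0029). At 24 h it read 10.67, 10.57 and 10.58 against 9.59, 9.31 and 9.84, a rise of 1.03 (SE 0.23, adjusted p = 0.0087). At 72 h it read 11.16, 11.26 and 11.57 against 9.23, 9.51 and 10.49, a rise of 1.59 (SE 0.23, adjusted p = 2.17e-05), with no overlap. The second Sesn2 probe set, which is dimmer, gave 0.56, 0.80 and 1.80 at 6, 24 and 72 h. When every probe set was tested by itself, it passed only at 72 h (adjusted p = 0.403, 0.163 and 0.000514). With pairing, 6 members passed at 6 h in place of 4, and 484 of all genes rose in place of 298.

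The count at 6 h also moved with single arrays. It was 1 without monuron 6 h replicate 2, where Cebpg alone passed, and 8 with only the 6 arrays of that time. Of all genes 69 and 631 rose in these fits. At 24 h the count was 4 without any 1 of monuron 24 h replicates 1, 2 and 3 or DMSO 24 h replicates 1 and 2, and 10 without DMSO 72 h replicate 3. Of all genes 205 to 303 rose in the former fits and 1044 in the latter. At 72 h the count of members stayed at 8 or 9. When each array was centred on its median, the calls over all genes at 6 h went from 298 higher and 273 lower to 175 higher and 389 lower. At 6 h the monuron arrays also differed in 1 of 3 controls of RNA quality. The 3′ minus 5′ signal of hexokinase was 0.35 to 0.93 with monuron and 1.13 to 1.30 with DMSO. The other controls overlapped: beta-actin had 1.07 to 1.42 against 1.07 to 1.52, and GAPDH -0.30 to -0.22 against -0.28 to -0.18. The part of the hexokinase signal in the result was not tested.

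In the 8 members that could be placed, DMSO 72 h replicate 3 lay further toward the treated level than in the median of other such genes. Its place was scaled so that the mean of DMSO replicates 1 and 2 is 0 and the mean of the monuron arrays is 1, over genes at least 1 log2 apart. Atf3 stood at 0.876, Trib3 at 0.866, Chac1 at 0.850, Atf4 at 0.822 and Ddit3 at 0.688. Sesn2 was at 0.571, Cebpg at 0.471 and Atf5, above the treated mean, at 1.568, while Cebpb and Nupr1 were under 1 log2 apart. The median was 0.836 over these 8 members and 0.420 (quartiles 0.236 and 0.615) over 1910 other genes at least 1 log2 apart. Cebpg and Sesn2 lay between those quartiles. Its RNA quality controls were 1.40 for the 3′ minus 5′ signal of beta-actin against 1.16 and 1.27 in replicates 1 and 2, and 1.33 for hexokinase against 1.00 and 1.08. Their part in the position of this array was not tested.

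**Figure D2:**
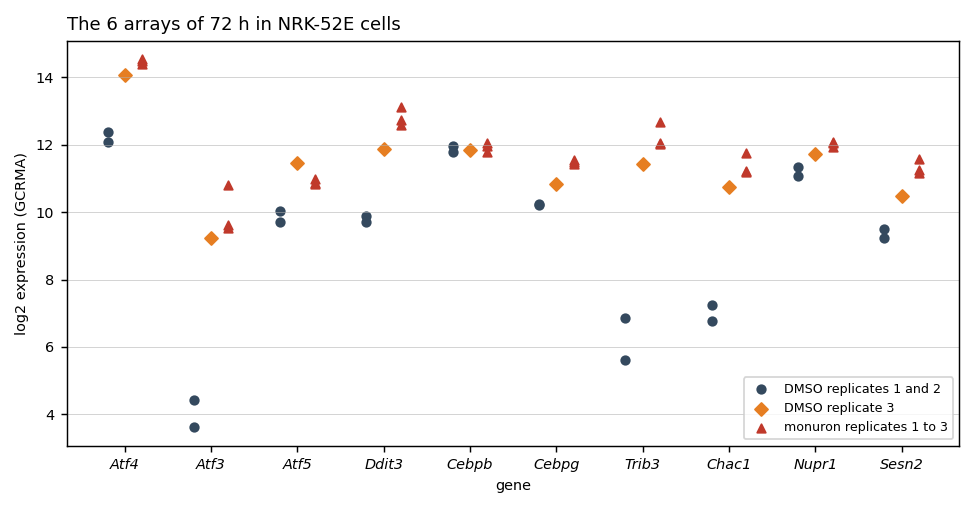
Log2 expression of the 10 members on the 6 arrays at 72 h, 1 point per array. DMSO replicate 3 lies close to the monuron arrays for Trib3 (11.44) and Atf3 (9.25), where DMSO replicates 1 and 2 are at 6.86 or lower, and above them for Atf5 (11.47).

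The change of the monuron difference between times was tested directly. From 6 to 24 h, 1 member gained and 0 lost (0.641% and 0.575% of all genes): Nupr1 gained 1.09 (SE 0.17, adjusted p = 0.0076, limma). From 24 to 72 h, 0 gained and 1 lost (18.3% and 19.6% of all genes): Nupr1 dropped by 1.07 (SE 0.17, adjusted p = 2.70e-04). Atf3 gained 2.81 over the same interval, which did not pass with all arrays unpaired (adjusted p = 0.0959) and passed with pairing (0.0237). Same-numbered arrays did not deviate together at 24 h, so that pairing is not borne out there. Without DMSO 72 h replicate 3 the count was 3 from 6 to 24 h, with Atf4 at -0.60 (0.0094) and Ddit3 at 0.82 (0.0161) beside Nupr1, and 8 from 24 to 72 h. Then Atf4 gained 1.47, Atf3 4.56, Ddit3 1.22, Cebpg 0.49, Trib3 3.15, Chac1 1.95 and Sesn2 0.93, and Nupr1 lost. Over all 9042 genes that fit had 332 gaining and 257 losing from 6 to 24 h, and 2320 and 2091 from 24 to 72 h. In the fit without the 72 h arrays 6 members changed from 6 to 24 h, and 2 of these narrowed, Atf4 by -0.60 (adjusted p = 0.0018) and Chac1 by -0.80 (0.0174). Of all genes 878 gained and 764 lost in that fit.

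Some members also moved with time in culture under DMSO alone, as did many other genes. From 6 to 24 h, 3 of the 10 rose (24.8% of all genes) and 1 fell (28.3%). These counts were near or below the shares over all genes, so they do not set the members apart. Chac1 rose by 1.93 (adjusted p = 0.0186), Cebpb by 0.64 (1.36e-05) and Cebpg by 0.38 (0.0112), and Atf5 fell by 0.82 (0.0271). Of these, the Chac1 call did not hold without DMSO 6 h replicate 2 (0.0582), nor the Atf5 call without DMSO 6 h replicate 1 or DMSO 24 h replicates 1 or 3. Centring arrays on their medians shifted every difference here by -0.13, and the Cebpg call was lost with it; the split over all genes went from 2239 higher and 2561 lower to 1666 and 3242. Leaving out DMSO 72 h replicate 3 gave 8 calls at this step, and leaving out DMSO 72 h replicate 1 gave 6. Over all genes the calls were then 5327 and 5134, against 4800 with all arrays. From 24 to 72 h, 4 rose and 0 fell (11.6% and 16.4% of all genes): Nupr1 by 2.00 (1.31e-07), Ddit3 by 1.24 (0.0189), Cebpb by 0.48 (0.0007) and Cebpg by 0.39 (0.0200). Without DMSO 24 h replicate 1 the count was 2, with adjusted p = 0.0603 for Ddit3 and 0.0621 for Cebpg, and Cebpg was also lost without DMSO 24 h replicate 2 (0.0563). Without DMSO 72 h replicate 3 the count from 24 to 72 h was 8, with 4 in each direction, with Atf4 at -0.60, Atf3 at -2.62, Trib3 at -1.59 and Chac1 at -1.37. The rises of Ddit3 and Cebpg were then 0.55 (adjusted p = 0.0063) and 0.19 (0.0425), less than with all arrays, while Nupr1 had 1.83 and Cebpb 0.48.

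Across the 18 cell arrays, which share treatment and time, the members' profiles were compared as a description. The correlation of a member with the mean of the other 9 was 0.957 for Atf4, 0.956 for Cebpg, 0.949 for Trib3, 0.942 for Ddit3, 0.927 for Sesn2, 0.926 for Chac1 and 0.869 for Atf3. It was lower for Nupr1 (0.765), Cebpb (0.488) and Atf5 (0.435). The genes outside the members most like their mean profile were Slc3a2, the heavy chain of amino acid exchangers, Herpud1, a component of ER-associated degradation, and Casp4, an inflammatory caspase (each r = 0.975), then Mars1 (0.968), Dtwd1 and Cth (0.967), Sars1 (0.964) and Bltp3a (0.962). The most opposite were Hnrnpr (-0.954), Dsel (-0.945) and Mxra7 (-0.942). Without DMSO 72 h replicate 3, 7 of the 8 most alike genes were again among the first 8, while Dtx2 (-0.961) and Sertad1 (-0.953) took the places of Dsel and Mxra7 at the opposite end, and H1f2 (0.979) that of Shfl beside Cebpb. Among single members, over all 18 arrays, Atf4 was nearest to Slc7a1, a cationic amino acid transporter (0.988), and Cebpg to Slc3a2 (0.981). Chac1 was nearest to the cystine transporter gene Slc7a11 (0.957), Sesn2 to Mars1 (0.976), Nupr1 to Klf15 (0.969) and Cebpb to Shfl (0.980). For Atf3 it was Ufsp2 (0.966), for Atf5 Zng1a (0.904), for Ddit3 Sars1 (0.974) and for Trib3 Bcat1 (0.969). Without DMSO 72 h replicate 3 these last became Vti1a (0.972), Spice1 (0.945), Fchsd2 (0.975) and Lars1 (0.970). The nearest genes of Atf4, Cebpg, Chac1, Sesn2 and Nupr1 stayed the same.

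The wider pathway was read from lists of genes outside the members, chosen like them with earlier results of these data known. Of 40 tested targets of ATF4 and CHOP, 6 rose at 6 h, 9 at 24 h and 37 at 72 h, with 0, 0 and 2 falling and medians of 0.39, 0.67 and 1.86. Over all genes 3.30%, 6.43% and 30.7% rose and 3.02%, 7.14% and 30.9% fell at these times, which is the background for list counts in cells with all arrays. At 6 h Cars1, the cysteinyl-tRNA synthetase, rose by 1.46 (adjusted p = 0.0067), a call kept in all 18 fits that left out 1 array. At 24 h Fgf21, a stress hormone, rose by 1.29 (0.0027), Slc3a2 by 1.21 (0.0054), Pck2 by 1.22 and Mars1 by 0.89, and these too were kept. The list's counts moved with single arrays: 22 rose at 6 h and 32 at 24 h without DMSO 72 h replicate 3, 1 rose at 6 h without monuron 6 h replicate 2 or DMSO 6 h replicate 1, and 4 at 24 h without any 1 of monuron 24 h replicates 1, 2 and 3 or DMSO 24 h replicates 1 and 2. They were also 2 or 3 at 6 h without any 1 of the other arrays of 6 h or DMSO 24 h replicate 1, and 20 at 24 h without DMSO 72 h replicate 1. The background moved too. Of 9042 genes 604 rose at 6 h and 1044 at 24 h without DMSO 72 h replicate 3. At 6 h 69 rose without monuron 6 h replicate 2, and 116 to 255 without any 1 other array of 6 h or DMSO 24 h replicate 1. At 24 h 205 to 303 rose without any 1 of the named arrays of 24 h, and 891 without DMSO 72 h replicate 1. The 2 targets that fell at 72 h, named after their values were seen, were Slc38a2 (-0.27) and Bcl2l11 (-0.40).

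Upstream, of 21 genes of the eIF2 kinases and their controls, 2 rose at 6 h (Ppp1r15b, a subunit of the eIF2 phosphatase, by 0.57, and Eif2ak3, the ER stress kinase PERK, by 0.50). Neither passed without monuron 6 h replicates 2 or 3 or DMSO 6 h replicates 1 or 2. At 24 h 1 rose and 2 fell, and at 72 h 15 rose and 4 fell, with a median of 0.46. At 72 h Dnajc3, an inhibitor of the kinases, rose by 1.67 and Eif2ak3 by 0.90, while Eif2ak4, the amino acid sensor GCN2, fell by 0.46. Of 18 genes of the ATF6 and XBP1 branch of the ER stress response, 0 passed at 6 h, 2 rose at 24 h (Atf6 by 0.64 and Calr by 0.38) and 17 rose at 72 h, with Dnajb9 up by 2.01 and Sdf2l1 by 2.16 and a median of 0.89. At 6 h, 4 of them passed without DMSO 72 h replicate 1 or 3, where 926 and 1197 of all genes passed, against 571 with all arrays.

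The members' relatives did not move as 1 group, and at 72 h, where 30.7% of all genes rose and 30.9% fell, several list counts were near these shares. Of 10 tested paralogues, Jdp2, a repressor near Atf3 in sequence, rose by 0.98 at 6 h and by 1.04 at 24 h, and Chac2 fell by 0.47 at 6 h. At 72 h 5 rose and 2 fell: Nupr2 was up by 1.00 and Sesn1, the p53-linked sestrin, fell by 1.86. Of 15 bZIP partners 1 fell at 6 h (Junb by 0.69), 3 rose and 1 fell at 24 h, and 6 rose and 2 fell at 72 h, among them Nfil3 (1.97) and Xbp1 (1.03) up and Tef (-2.92) down. Of 9 genes of ATF4 protein turnover, Egln1, an oxygen-sensing prolyl hydroxylase, fell by 0.53 at 6 h and by 0.59 at 24 h. Of 21 genes around sestrins and TORC1, 0 passed at 6 h, 2 rose and 2 fell at 24 h, and 7 rose and 7 fell at 72 h, close to the shares over all genes. Rragd, a Rag GTPase, was up by 1.51 at 24 h and 1.99 at 72 h.

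In the rats no member rose in either organ. In kidney, 8 members passed the filter on dim probe sets. Chac1 lay below its array's median on all 8 kidney arrays (percentile 6.65 to 39.87) and Atf3 above it on 1 of 8 (36.58 to 55.76), and neither was tested. Atf3 read 3.09, 2.72, 3.01 and 2.84 with monuron and 3.87, 3.29, 5.13 and 3.78 in controls, so its groups did not overlap either, near or below the array median. Of the 8 tested 0 rose and 1 fell, against 3.87% of all genes higher and 6.34% lower, and the median member difference was -0.31 beside -0.08 over all genes. The member that fell was Cebpb. It read 8.82, 8.73, 8.67 and 8.95 with monuron and 9.62, 9.28, 9.84 and 9.94 in controls. Every monuron array lay below every control, and Cebpb fell by 0.88 (SE 0.14, adjusted p = 0.0063, limma), which is 1.84-fold lower.

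Of the tested members, Atf5 was the other one whose kidney groups did not overlap (13.6% of all genes lay lower without overlap). It read 7.29, 7.39, 7.39 and 7.31 against 7.42, 7.61, 8.03 and 7.93, a difference of -0.40 (adjusted p = 0.0905). Ddit3 read 7.91, 8.16, 7.84 and 7.82 against 8.29, 8.15, 8.35 and 8.52, a difference of -0.39 (adjusted p = 0.0541) with 1 monuron array level with the lowest control. Ddit3 passed without kidney monuron replicate 2 (-0.47, 0.0377) and Atf5 without kidney control replicate 1 (-0.51, 0.0388), so the count was then 2. Atf4 read 11.06, 11.07, 10.69 and 10.91 against 11.11, 11.06, 11.45 and 11.44, a difference of -0.33 (adjusted p = 0.102), and Sesn2 differed by -0.20 (0.167). The dimmer Sesn2 probe set went the other way, by 0.30 (adjusted p = 0.299 when each probe set was tested). Trib3, near the array median in kidney, ranged from 4.00 to 4.19 with monuron and from 3.78 to 4.10 in controls. Its difference was 0.18, and its other probe sets gave -0.06 and -0.08. Nupr1 varied most between rats, from 7.08 to 8.68 and from 6.05 to 10.02, and its difference of -0.28 had an SE of 0.73. Cebpg differed by -0.05 with its brighter probe set, while its dimmer one read 6.53, 6.68, 5.01 and 5.06 against 4.90, 4.85, 4.47 and 4.05, a difference of 1.25 that did not pass when each probe set was tested (adjusted p = 0.12).

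In liver 9 members were tested, all but Atf3, which lay above its array's median on 3 of 8 arrays. Of these 0 rose and 1 fell, against 1.10% of all genes higher and 2.02% lower, with a median of -0.24 beside -0.07 over all genes. Atf5, which in liver lay at percentile 96.3 to 97.54 of its array, read 11.88, 11.92, 12.08 and 12.06 with monuron and 12.37, 12.52, 12.54 and 12.49 in controls. All monuron arrays were below all controls, and Atf5 fell by 0.49 (SE 0.07, adjusted p = 0.0136), a call lost without liver monuron replicate 1 (0.0518) or liver control replicate 2 (0.0512).

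Ddit3 and Sesn2 were also lower in every monuron liver (9.93% of all genes were lower without overlap). Ddit3 read 7.28, 7.15, 7.29 and 7.40 against 8.0, 7.47, 7.44 and 7.86, a difference of -0.41 (adjusted p = 0.156). Sesn2 read 7.94, 7.94, 7.97 and 8.05 against 8.52, 8.82, 8.20 and 8.25, a difference of -0.48 (adjusted p = 0.103). Neither passed the test. Chac1, above the array median on 4 of 8 liver arrays, 3 of them controls, read 3.25, 2.98, 2.73 and 3.69 against 4.35, 3.41, 5.44 and 5.45, a difference of -1.50 (adjusted p = 0.0944), or -1.01 with values held at the array median. Cebpb differed by -0.24 (12.31, 12.29, 12.30 and 12.59 against 12.56, 12.39, 12.80 and 12.70; adjusted p = 0.201). Atf4 (0.15), Cebpg (-0.03), Trib3 (-0.21) and Nupr1 (-0.10) had overlapping groups. The other probe sets gave -0.70 and -0.90 for Trib3, 0.76 for Cebpg and 0.02 for Sesn2, so the second Sesn2 probe set showed no fall. None of them passed when each was tested (adjusted p = 0.602, 0.382, 0.448 and 0.924). Nupr1 ranged from 8.06 to 10.32 with monuron and from 8.18 to 10.38 in controls.

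**Figure D3:**
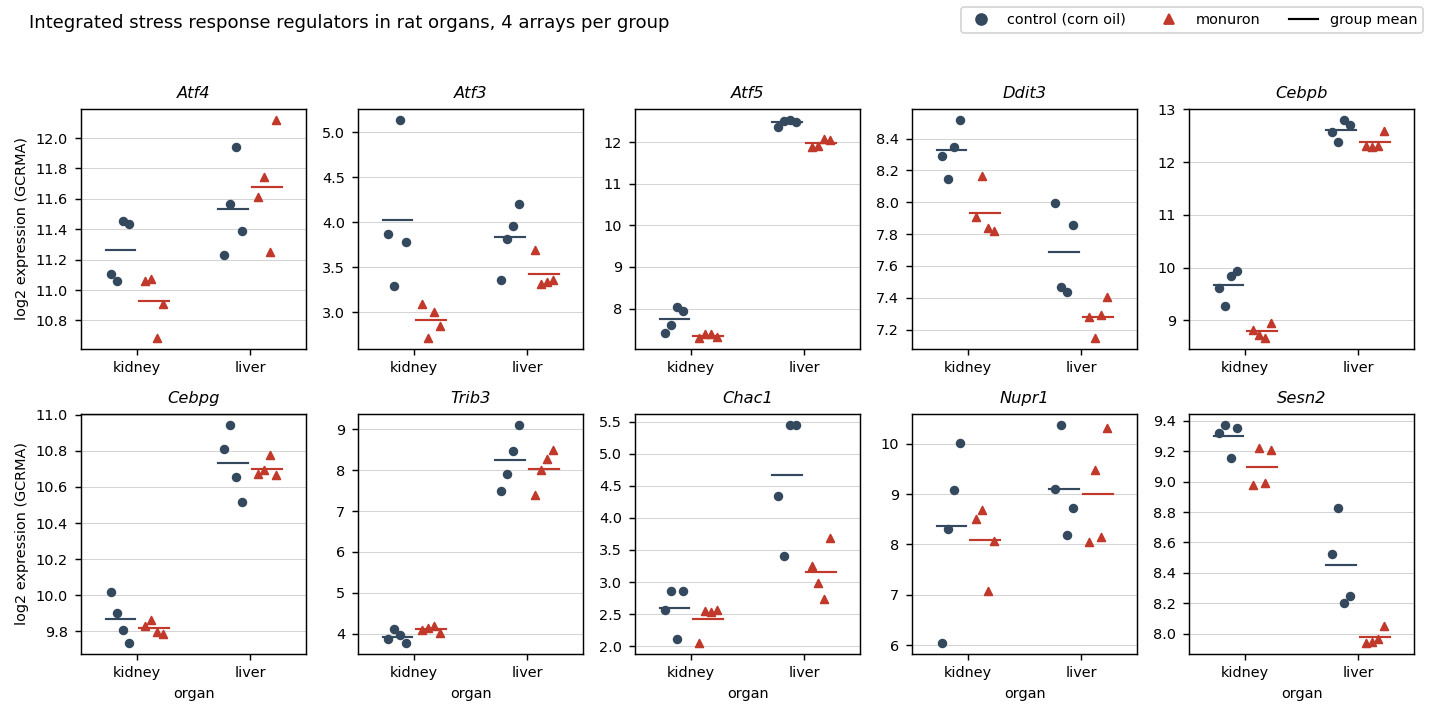
Log2 expression of the 10 members on the 8 kidney and 8 liver arrays, 1 panel per gene; points are single arrays and bars are group means. Cebpb in kidney and Atf5 in liver have all 4 monuron arrays below all 4 controls, and Nupr1 spreads from 6.05 to 10.02 among kidney controls.

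Other genes of the pathway were mostly without calls in the organs. Of 36 tested targets of ATF4 and CHOP in kidney 2 rose and 5 fell, with a median of -0.09, beside 3.87% and 6.34% of all genes. Gdf15, a stress hormone, fell by 3.28 (adjusted p = 0.0031) and Bcl2l11, a pro-apoptotic BH3 protein, by 0.98, both kept in all 8 fits without 1 array, and Asns, the asparagine synthetase, fell by 0.68 (0.0188). Without kidney monuron replicate 3 or kidney control replicate 3 the count lower was 2, and none rose without 5 of the 8 arrays in turn (monuron replicates 1, 2 and 3 and control replicates 3 and 4). Of 14 bZIP partners 3 fell, among them Maff (-1.94, adjusted p = 0.0059). Of 18 genes of the ATF6 and XBP1 branch 2 rose, Hspa5 by 0.42 and Atf6 by 0.31, and both were lost in 5 of the 8 fits without 1 array, those without monuron replicates 1 or 3 or control replicates 1, 3 or 4, while 4 rose without kidney monuron replicate 2. In liver 1 of 37 targets passed, Slc7a5, an amino acid exchanger subunit, which fell by 1.57 (0.0396); it did not pass without monuron replicate 1, 2 or 3 or control replicate 1 or 2, and 1 rose and 3 fell without liver control replicate 3.

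Markers of tissue state moved beside these differences. In kidney the mean of 10 markers of injury and dedifferentiation was 6.37 to 6.90 with monuron and 7.22 to 7.78 in controls, with 6 and 8 of the 10 above the array median on every array. The mean of 11 proximal tubule markers was 13.53 to 13.66 with monuron and 13.29 to 13.38 in controls. In liver the mean of 11 leukocyte markers was 6.12 to 6.36 against 5.87 to 6.03, and the 3′ minus 5′ signal of beta-actin was 3.10 to 3.89 against 3.40 to 4.77. Their part in the differences of Cebpb and Atf5 was not tested.

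The difference between the organs in their response was tested in a joint fit, and 0 of the 8 members tested in kidney passed, against 2.68% of all genes in either direction. Atf3 and Chac1 entered the joint fit through only 4 of 16 arrays each, none of them a monuron array for Atf3 and none of them a kidney array for Chac1, and their organ difference is not read here. Cebpb was nearest, with its liver difference above that in kidney by 0.64 (adjusted p = 0.0742, limma, unadjusted p = 0.0028), and it was the 1 member of the 8 with an unadjusted p under the threshold. It passed without kidney control replicate 2 (0.77, adjusted p = 0.0147) or liver control replicate 3 (0.70, 0.0434). The fall of Cebpb in kidney and of Atf5 in liver is therefore not shown to be particular to either organ.

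**Figure D4:**
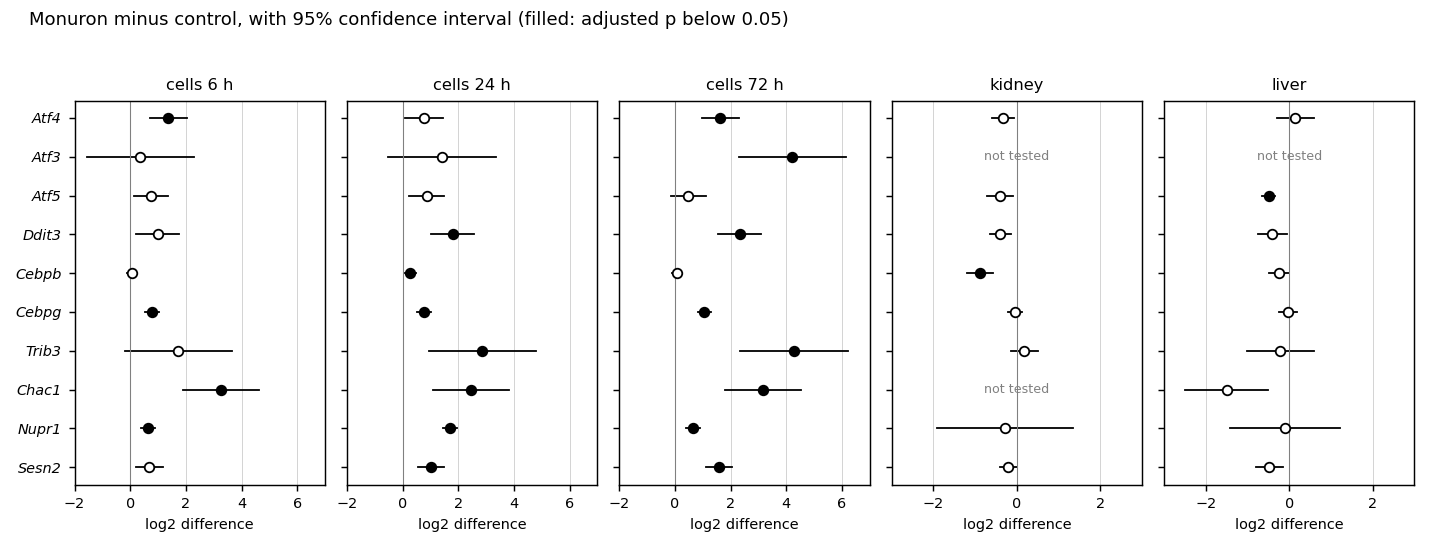
Monuron minus vehicle on the log2 scale for the 10 members, 1 panel per comparison; points are limma estimates, lines their 95% intervals, and filled points passed at an adjusted p under 0.05. The horizontal scale of the cell panels is wider than that of the organ panels: cell differences reach 4.28 (Trib3 at 72 h), and in the organs the filled points are Cebpb in kidney (-0.88) and Atf5 in liver (-0.49).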

How the data were processed

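The 34 arrays were read from a value table in which the authors deposited log2 expression values per probe set, made with GCRMA per the submitters' processing notes; its version is not given in the sources used here. This method corrects background and brings arrays to a like distribution, which can compress dim values. After 57 control probe sets, 20826 probe sets carried 1 symbol, 436 several and 9780 none. Each gene took its probe set of highest mean, kept if it exceeded the array median on a number of arrays no smaller than the smallest group. Differences were fitted with limma 3.58.1 in R 4.3.3 (eBayes with trend, Benjamini-Hochberg over all genes): 18 cell arrays together (9042 genes), kidney (9542) and liver (9361) apart, both organs jointly for their difference (10114). The code was tested on simulated data.

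The members and lists were chosen with earlier results of these data known. Named are all members, up to 6 genes of a list by smallest adjusted p, and the most alike genes. Alternatives were centring, filter, trend, probe sets averaged, values held at the array median, arrays left out, single times and a replicate block. Titles call arrays biological replicates without naming separate cultures, so p-values in cells measure the spread between these arrays. Same-numbered arrays deviated together in part at 6 h (r = 0.197 to 0.491, unlike numbers up to 0.301) and 72 h (0.167 to 0.317, unlike numbers up to 0.275). At each of these times 4 of 6 arrays were closest to their own number. They did not deviate together at 24 h (-0.116 to 0.128, 0 of 6), in kidney (-0.216 to 0.018) or in liver (-0.164 to 0.045). The labels give no pairing, and the block was fitted at 24 h and in the organs as well, where this check did not show it.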

Additional observations from a re-analysis of the deposited data

Results flagged for a closer look

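In the fit with all arrays, Nupr1 was the 1 member whose monuron difference itself changed between times. It gained 1.09 on the log2 scale from 6 to 24 h (adjusted p = 0.0076, limma) and changed by -1.07 from 24 to 72 h (2.70e-04). Its monuron and DMSO arrays did not overlap at any time. Without DMSO 72 h replicate 3 the change was not particular to Nupr1: 3 members passed from 6 to 24 h and 8 from 24 to 72 h. Among the 40 member and organ groups of 4 arrays, 3 held an array far from the other 3, where chance gives about 5%. Atf3 in liver monuron replicate 1 was 3.70, with the others at 3.32 to 3.35. Cebpb in liver monuron replicate 4 was 12.59, with the others at 12.29 to 12.31. Chac1 in kidney monuron replicate 1 was 2.05, with the others at 2.53 to 2.56, all below the array median.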

How the results depend on the processing

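Counts of members that passed ranged as follows when 1 array was left out: 1 to 8 at 6 h (4 with all arrays), 4 to 10 at 24 h (7), 8 to 9 at 72 h (8), 1 to 3 for the change from 6 to 24 h (1), 1 to 8 for that from 24 to 72 h (1), 3 to 8 for DMSO from 6 to 24 h (4), 2 to 8 for DMSO from 24 to 72 h (4), 1 to 2 in kidney (1), 0 to 1 in liver (1) and 0 to 1 between the organs (0). With only the 6 arrays of that time, or without all 72 h arrays, 8 passed at 6 h, and without all 72 h arrays 6 changed from 6 to 24 h. With the replicate block the counts were 6 at 6 h, 8 at 24 h (Atf5 added, adjusted p = 0.0498), 8 at 72 h, 1 from 6 to 24 h, 2 from 24 to 72 h, 1 in kidney and 1 in liver. At 24 h and in both organs same-numbered arrays did not deviate together, so the block is not borne out there. Without both 72 h arrays of number 3, an alternative chosen after seeing the data, 8 passed from 24 to 72 h and 8 for DMSO from 24 to 72 h, where Atf4 (-0.60) and Trib3 (-1.59) reversed. With all probe sets averaged, Cebpg reversed for DMSO from 24 to 72 h (-0.12), in kidney (0.60) and in liver (0.37), as did Sesn2 in kidney (0.050). Leaving out 1 array reversed uncalled values: Chac1 from 24 to 72 h (-0.035 to 1.95), for DMSO from 24 to 72 h Atf4 (-0.60 to 0.40), Atf3 (-2.62 to 0.19), Trib3 (-1.59 to 1.33) and Chac1 (-1.37 to 0.61), in kidney Cebpg (-0.091 to 0.0032) and Nupr1 (-1.05 to 0.27), in liver Cebpg (-0.10 to 0.040), Trib3 (-0.46 to 0.079) and Nupr1 (-0.54 to 0.33). The causes were not tested. Counts over all genes also moved, here over every alternative run and not only those without 1 array: 571 at 6 h (103 to 2048 over the alternatives), 1227 at 24 h (458 to 3240), 110 from 6 to 24 h (15 to 1642), 3423 from 24 to 72 h (2777 to 4411), 2526 for DMSO from 24 to 72 h (1735 to 3841), 974 in kidney (350 to 958), 292 in liver (34 to 504) and 271 between the organs (154 to 500). With 3 or 4 arrays a group and dim probe sets for Atf3 and Chac1 in the organs, differences there could be missed.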
